A study of Mus musculus with 8 samples.

Results

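Synaptic vesicle release was followed through 44 genes of the vesicle, the fusion machinery, the active zone and vesicle recycling, chosen by name from 55536 genes counted in mouse frontal cortex. All 44 are protein coding genes, all 44 were matched by symbol, and all 44 were abundant enough to receive an adjusted p-value. Frontal cortex came from 8-week-old mice of 2 genotypes, with 4 WT and 4 HAR123-KO libraries. In HAR123-KO mice the enhancer HAR123, which lies within an intron of Smg6, was removed with CRISPR-Cas9 in the zygote and is therefore missing from every cell type. The controls were WT littermates, and both genotypes were on a C57BL/6J background. The comparison asks which transcripts of the frontal cortex, a region tied to cognitive flexibility, depend on this enhancer. The labels do not say whether each library came from its own animal and do not give sex, so p-values measure the spread between these libraries.

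A presynaptic terminal stores transmitter in vesicles that are filled by transporters, tethered by synapsins and Rab3, and held at the active zone by large scaffold proteins. Munc13 proteins prime a vesicle by helping syntaxin, SNAP-25 and VAMP assemble into the SNARE complex, complexin clamps and assists this complex, and synaptotagmin triggers fusion when calcium enters. NSF then takes the spent complexes apart, and dynamin, amphiphysin and synaptojanin return the membrane to the vesicle pool. Most of these proteins exist as paralogs that different neurons use in different proportions, which is why the balance within a family is of interest in a mixed tissue.

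Of the 44 genes, 5 passed the test (DESeq2 Wald test, adjusted p under 0.05), 3 of them lower and 2 higher in HAR123-KO. Slc17a7, the vesicular glutamate transporter of cortical pyramidal neurons, the Rab3 effector Rph3a and the active zone scaffold Bsn fell by 7.23% to 11.4%. Unc13c, a priming factor best known from the cerebellum, rose by 42.3%, and Cplx2, a complexin, rose by 6.69%. The central fusion genes Snap25 and Syt1 differed by under 1% between the genotypes.

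The 5 calls are 11.4% of the genes. Over all 12758 tested genes 215 were called, which is 1.69%, with 0.972% called higher and 0.713% called lower. The vesicle genes are abundant, and small differences are easier to call in abundant genes. Their median mean level was 1207 normalized counts (counts divided by the library's DESeq2 size factor), against 106 for the tested genes, 96.2% of which lie below it. Among the 621 tested genes averaging 1000 or more normalized counts, 12.6% were called. Of the 24 vesicle genes at that level 4 were called (16.7%), and of the other 20 it was 1.

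Of the called members 3 are shown with the 250 bases before their RefSeq start, because each has a single start in that table close to the first base of the gene model used for counting, at a distance of 28 bases for Slc17a7, 71 for Unc13c and 1 for Bsn. Coordinates are GRCm38.p6 and the strand is that of the gene. Capitals mark matches on either strand to 4 motifs searched by their letters, the GC box GGGCGG, the cyclic AMP response element TGACGTCA, the core of the NRF1 motif GCATGCGC and the E-box CAGCTG.
Slc17a7, chr7:45163671-45163920, plus strand: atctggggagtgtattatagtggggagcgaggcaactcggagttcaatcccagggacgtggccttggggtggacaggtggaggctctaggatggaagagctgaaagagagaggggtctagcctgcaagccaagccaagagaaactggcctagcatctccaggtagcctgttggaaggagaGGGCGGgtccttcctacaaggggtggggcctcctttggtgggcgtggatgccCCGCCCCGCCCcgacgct
Unc13c, chr9:73969038-73969287, minus strand: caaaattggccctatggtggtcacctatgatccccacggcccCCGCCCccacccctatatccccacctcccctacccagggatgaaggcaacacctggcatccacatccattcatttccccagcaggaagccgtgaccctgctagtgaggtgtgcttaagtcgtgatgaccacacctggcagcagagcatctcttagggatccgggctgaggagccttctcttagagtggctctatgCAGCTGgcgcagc
Bsn, chr9:108190384-108190633, minus strand: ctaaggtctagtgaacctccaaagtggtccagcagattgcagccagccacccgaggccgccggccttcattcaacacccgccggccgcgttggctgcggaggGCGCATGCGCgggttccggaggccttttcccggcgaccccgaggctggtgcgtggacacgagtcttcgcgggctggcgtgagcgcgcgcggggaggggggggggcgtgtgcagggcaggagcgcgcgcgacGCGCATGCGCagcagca
The Slc17a7 window held 3 GC boxes, the last 2 sharing a base with each other, and the Bsn window held 4 matches to the NRF1 core, which overlap in 2 places. The Unc13c window held 1 GC box and 1 E-box. RefSeq gave windows for 35 of the 44 genes, 48 windows in all. A GC box was present in 58.3% of these windows and in 32.7% of all 32851 windows of the same length, an E-box in 29.2% and 13.0%, the NRF1 core in 6.25% and 2.26%, and the cyclic AMP element in 2.08% and 1.55%. The vesicle gene windows were also richer in G and C, with a median of 60.6% against 52.4%. These matches describe letters only.

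Levels were measured per kb of annotated exon, which compares genes only roughly because it depends on their gene models. The range was from Snap25 at 1071 ± 19.5 normalized counts per kb to Syn3 at 9.17 ± 0.509 in WT (SD, n = 4). Snap25 and Cplx2 (1053 ± 23.2) lay within their spread of each other. They were followed by Syt1 at 714 ± 13.1 and by Slc17a7 (676 ± 8.75), Vamp2 (675 ± 4.38) and Dnm1 (670 ± 19.4), which did not differ beyond their spread. Unc13c stood near the bottom, at 21.6 ± 2.81 in WT and 30.8 ± 2.65 in HAR123-KO. In HAR123-KO Cplx2 had the highest level, 1123 ± 8.08, above Snap25 at 1076 ± 23.9. The RefSeq start of Cplx2 lies 68793 bases before the gene model used for counting, so its level per kb is less certain.

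**Figure D1:**
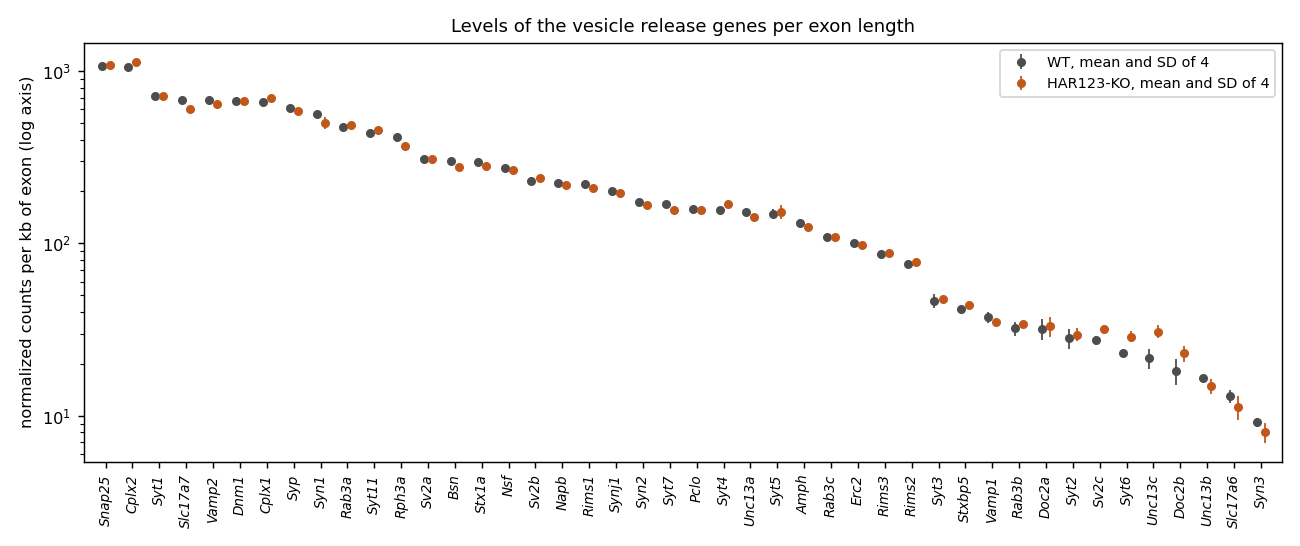
Normalized counts per kb of exon (log axis) for the 44 genes, ordered by the WT level, with the mean and SD of 4 libraries for each genotype. Levels ran from over 1000 for Snap25 and Cplx2 to under 10 for Syn3, and the genotypes lay close together for nearly all genes, with Unc13c among the exceptions.

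**Figure D2:**
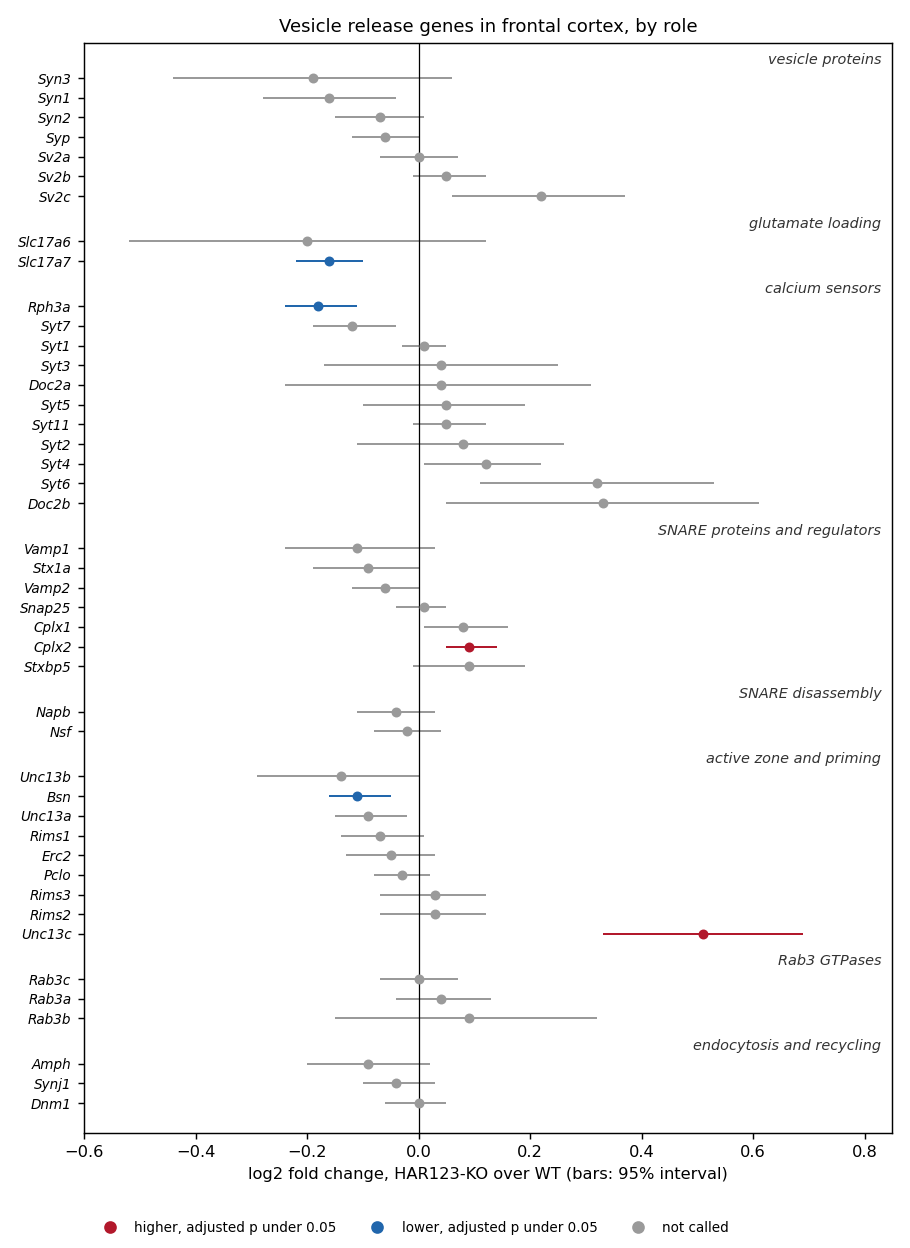
Log2 fold change of HAR123-KO over WT with its 95% interval for each gene, grouped by role and ordered by size within a role. Blue and red mark the 3 genes called lower and the 2 called higher, and grey marks the 39 genes that were not called.

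Among the vesicle proteins, DESeq2 called none of 7 genes (3 had an unadjusted p under 0.05, and edgeR called 1), and log2 fold changes ran from -0.19 to 0.22. Syn1, a synapsin that ties vesicles to one another and to actin, had 1917, 1884, 1764 and 1835 normalized counts in WT replicates 1 to 4 and 1498, 1688, 1630 and 1808 in HAR123-KO replicates 1 to 4. In 3 HAR123-KO libraries Syn1 lay below all WT libraries and replicate 4 lay among them. The log2 fold change was -0.16 ± 0.06 (SE) with an adjusted p of 0.234 in DESeq2 and 0.0101 in the quasi-likelihood test of edgeR, so the call depends on the test. With TMM size factors in DESeq2 the adjusted p was 0.0153, and without HAR123-KO replicate 4 it was 0.000222 at a log2 fold change of -0.20.

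Syp encodes synaptophysin, an abundant vesicle membrane protein. Its counts were 3129, 3036, 3284 and 3269 in WT and 3051, 3049, 3057 and 3038 in HAR123-KO, and the HAR123-KO values all lie close to the lowest WT library. Its log2 fold change was -0.06 ± 0.03, with an adjusted p of 0.5. Antisense gene Gm14703 overlaps 16.8% of the exon length of Syp and had no counts.

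The SV2 glycoproteins are carried by most secretory vesicles, Sv2a in nearly all neurons and Sv2c mainly in the basal ganglia. Sv2a gave 1442, 1385, 1419 and 1452 counts in WT against 1482, 1408, 1439 and 1373 in HAR123-KO, with an interval of the log2 fold change from -0.07 to 0.07. Sv2c gave 250, 281, 255 and 276 counts in WT against 333, 289, 305 and 308 in HAR123-KO. All HAR123-KO libraries lay above all WT libraries for Sv2c and the groups overlapped for Sv2a. The log2 fold change of Sv2c was 0.22 ± 0.08, which was not past the threshold in DESeq2 (adjusted p = 0.185) or edgeR (adjusted p = 0.053). Sv2c supplied 4.85 ± 0.266% of the length-corrected SV2 counts in WT and 5.51 ± 0.277% in HAR123-KO. The other 3 vesicle genes, Syn2, Syn3 and Sv2b, had log2 fold changes of -0.07, -0.19 and 0.05, with overlapping groups. The exons of Syn3 overlap those of Timp3 on the other strand over 14.1% of their length, and how strand was handled at counting is not given in the sources used here.

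Of the 2 glutamate transporters, Slc17a7 (VGLUT1) fell and Slc17a6 (VGLUT2), whose protein marks the terminals of thalamic and other subcortical neurons, did not pass the test. The counts are of RNA and do not measure those terminals. Slc17a7 (ENSMUSG00000070570, GRCm38 chromosome 7, bases 45163949 to 45176142, plus strand) had 3671, 3615, 3600 and 3700 counts in WT and 3199, 3153, 3242 and 3447 in HAR123-KO. The groups were apart, and HAR123-KO replicate 4 was the nearest to WT. On the log2 scale the difference was -0.16 ± 0.03 (DESeq2 adjusted p = 8.21e-06, edgeR adjusted p = 0.00059). Leaving out each library in turn kept the call in 8 of 8 fits, with log2 fold changes from -0.19 to -0.15. No annotated exon of another gene overlaps its exons.

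Slc17a6 had 72.1, 77.2, 64.4 and 66.3 counts in WT and 49.1, 56.1, 69.6 and 68.1 in HAR123-KO, with 2 HAR123-KO libraries below the WT range and 2 within it. Its log2 fold change was -0.20 ± 0.16, with an interval from -0.52 to 0.12, so at this depth a change of the size seen in Slc17a7 would not have been detectable. The log2 ratio of Slc17a6 to Slc17a7 within a library averaged -5.70 ± 0.12 in WT and -5.75 ± 0.21 in HAR123-KO (two-sided exact permutation test over 70 assignments, p = 0.743). Slc17a7 held 98.1% of the length-corrected counts of the pair in WT and 98.2% in HAR123-KO. DESeq2 called none of the 12 neuron markers (2 had an unadjusted p under 0.05, and edgeR called 1, Stmn2, lower), and their totals were 5454 to 5507 CPM (scaled to nuclear protein-coding counts) in WT and 5280 to 5416 in HAR123-KO. Among 7 upper layer markers 1 was called lower, and their sum was 1172 to 1227 in WT and 1082 to 1152 in HAR123-KO. The 8 deep layer markers summed the other way, to 449 to 477 in WT and 479 to 504 in HAR123-KO. DESeq2 called none of these 8. Their log2 fold changes were 0.32 for Foxp2, 0.30 for Crym, 0.11 for Pcp4, 0.10 for Bcl11b, 0.06 for Tle4, 0.01 for Hs3st4, -0.06 for Fezf2 and -0.10 for Ntsr1. Some of these genes, Foxp2, Bcl11b and Crym among them, are also expressed by striatal neurons. No gene of these 3 lists was at 0, and the part of these shifts in the Slc17a7 difference was not tested. In bulk tissue, fewer cells of a type and less RNA per cell cannot be told apart.

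Of the 11 calcium sensors and related C2 domain proteins, 1 was called, Rph3a, which was lower, while 9 of the 11 were fitted above 0. Rph3a (ENSMUSG00000029608, chromosome 5, bases 120940499 to 121010092, minus strand) encodes rabphilin, which binds Rab3 and SNAP-25. It had 1993, 1843, 1924 and 1879 counts in WT against 1694, 1650, 1711 and 1709 in HAR123-KO. Every HAR123-KO library lay well below the lowest WT library. On the log2 scale the difference was -0.18 ± 0.03 (DESeq2 adjusted p = 6.73e-05, edgeR adjusted p = 0.000512), and it was called in 8 of 8 fits that left out a library.

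Syt1, the sensor of fast synchronous release in cortical neurons, had 5830, 6037, 6058 and 5903 counts in WT and 5983, 5995, 6035 and 5993 in HAR123-KO. The groups overlapped fully and the interval of the log2 fold change ran from -0.03 to 0.05. Syt7, a slow sensor of high calcium affinity linked to facilitation and asynchronous release, had 1291, 1243, 1285 and 1266 counts in WT and 1128, 1198, 1194 and 1162 in HAR123-KO. Here the groups were apart, with a log2 fold change of -0.12 ± 0.04 and a DESeq2 adjusted p of 0.113 (edgeR 0.0696). As a share of the 8 synaptotagmins per exon length, Syt7 held 9.83 ± 0.157% in WT and 8.87 ± 0.151% in HAR123-KO, and Syt1 held 41.4 ± 0.683% and 40.9 ± 0.495%.

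A further 3 less abundant sensors leaned the other way without passing the DESeq2 threshold. Syt4, which binds calcium poorly and acts mostly on dense core vesicles, had 623, 575, 633 and 611 counts in WT against 689, 688, 657 and 620 in HAR123-KO, and only replicate 4 of HAR123-KO fell within the WT range. Syt6, a relative of Syt3, had 141, 140, 126 and 131 counts in WT against 182, 159, 174 and 155 in HAR123-KO, with all HAR123-KO libraries above all WT libraries. Doc2b, a high-affinity sensor of spontaneous release, had 66.4, 98.8, 74.6 and 80.2 counts in WT against 91.1, 115, 99.5 and 95.7 in HAR123-KO, with overlapping groups.

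Their log2 fold changes were 0.12 ± 0.05 for Syt4 (DESeq2 adjusted p = 0.431), 0.32 ± 0.11 for Syt6 (0.108) and 0.33 ± 0.14 for Doc2b (0.399). The edgeR test called Syt6, with an adjusted p of 0.0293. The share of Syt6 among the synaptotagmins was 1.34 ± 0.0852% in WT and 1.63 ± 0.127% in HAR123-KO. A gene on the other strand, Atg4a-ps, overlaps 8.67% of the Syt6 exons at a mean of 1.85 counts. The remaining sensors Syt2, Syt3, Syt5, Syt11 and Doc2a had log2 fold changes of 0.04 to 0.08 and overlapping groups. Doc2a shares 39.4% of its exon length with Ino80e on the other strand, so its value is uncertain.

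Of the 7 SNARE proteins and their direct regulators only Cplx2 was called. Cplx2 (ENSMUSG00000025867, chromosome 13, bases 54371349 to 54383917, plus strand) had 5339, 5100, 5219 and 5100 counts in WT and 5571, 5560, 5481 and 5534 in HAR123-KO. All 4 HAR123-KO libraries lay above the highest WT library. This was a log2 fold change of 0.09 ± 0.02, with an adjusted p of 0.0084 in DESeq2 and 0.077 in edgeR. Leaving out WT replicate 2 raised the DESeq2 adjusted p to 0.134, and leaving out WT replicate 4, HAR123-KO replicate 1 or HAR123-KO replicate 2 raised it to 0.0609, 0.0623 and 0.0668, so 4 of 8 such fits kept the call.

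Its paralog Cplx1 had 1495, 1430, 1363 and 1471 counts in WT against 1507, 1545, 1557 and 1476 in HAR123-KO, with a log2 fold change of 0.08 ± 0.04 (DESeq2 adjusted p = 0.445). The values of Cplx1 overlapped by a single HAR123-KO library, replicate 4. Cplx2 supplied 61.6 ± 0.996% of the length-corrected complexin counts in WT and 61.8 ± 0.66% in HAR123-KO, so the complexin balance differed by less than the spread between libraries.

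Snap25, the membrane-anchored SNARE of the terminal, had 7244, 7469, 7177 and 7209 counts in WT against 7437, 7405, 7302 and 7077 in HAR123-KO. The groups overlapped, and the 95% interval of its log2 fold change ran from -0.04 to 0.05. Vamp2, the vesicle SNARE of most cortical neurons, had 2589, 2557, 2555 and 2579 counts in WT against 2411, 2436, 2508 and 2505 in HAR123-KO. The groups of Vamp2 were apart at a log2 fold change of -0.06 ± 0.03 (DESeq2 adjusted p = 0.527).

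Vamp1, which replaces Vamp2 in fast-spiking interneurons and in many neurons outside the cortex, had 356, 363, 414 and 382 counts in WT against 343, 340, 345 and 386 in HAR123-KO, with replicate 4 of HAR123-KO well above the other 3. Its log2 fold change was -0.11 ± 0.07 (DESeq2 adjusted p = 0.753). The log2 ratio of Vamp1 to Vamp2 was -2.76 ± 0.10 in WT and -2.80 ± 0.07 in HAR123-KO, a difference of -0.04 (exact permutation test, p = 0.629). DESeq2 and edgeR called none of 9 fast-spiking interneuron markers (2 had an unadjusted p under 0.05), and their sum was 1039 to 1058 CPM in WT and 1031 to 1059 in HAR123-KO. Stx1a, the target membrane syntaxin, and Stxbp5, a tomosyn that holds back SNARE assembly, had log2 fold changes of -0.09 and 0.09 with overlapping groups.

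The pair that takes SNARE complexes apart did not pass the test in DESeq2 or edgeR, and 0 of the 2 had an unadjusted p under 0.05. Nsf, the ATPase, had 2296, 2200, 2280 and 2295 counts in WT against 2205, 2238, 2271 and 2244 in HAR123-KO. The WT libraries enclosed the HAR123-KO libraries, and the log2 fold change lay between -0.08 and 0.04 at 95%. Napb, its neuronal adaptor, had a log2 fold change of -0.04.

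At the active zone 2 of 9 genes were called, in opposite directions. Bsn (ENSMUSG00000032589, chromosome 9, bases 108096022 to 108190384, minus strand) encodes bassoon, a giant scaffold that organises the site of release together with piccolo. It had 4811, 4790, 4857 and 4655 counts in WT against 4276, 4315, 4447 and 4702 in HAR123-KO. Of the HAR123-KO libraries 3 lay below all WT libraries, and replicate 4 lay among them. For Bsn the log2 fold change was -0.11 ± 0.03 (DESeq2 adjusted p = 0.0143, edgeR adjusted p = 0.0419).

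Without HAR123-KO replicate 4 the log2 fold change of Bsn was -0.14 with an adjusted p of 0.000101, and without WT replicate 4 the adjusted p was 0.00863. Leaving out any of the other 6 libraries ended the call, with adjusted p-values of 0.143, 0.115 and 0.0882 without WT replicates 1, 2 and 3 and of 0.18, 0.193 and 0.0889 without HAR123-KO replicates 1, 2 and 3. HAR123-KO replicate 4 was also nearest to WT for Syn1 and Slc17a7. In that library Gm42418, a gene over ribosomal RNA sequence, took 57.4% of all counts, where replicates 1 to 3 of that genotype ranged over 55.1% to 55.7% and WT over 56.8% to 58.1%, and its part in these values was not tested. A miRNA gene, Gm47303, shares 57 bases with the Bsn exons at a mean of 0.864 counts.

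**Figure D3:**
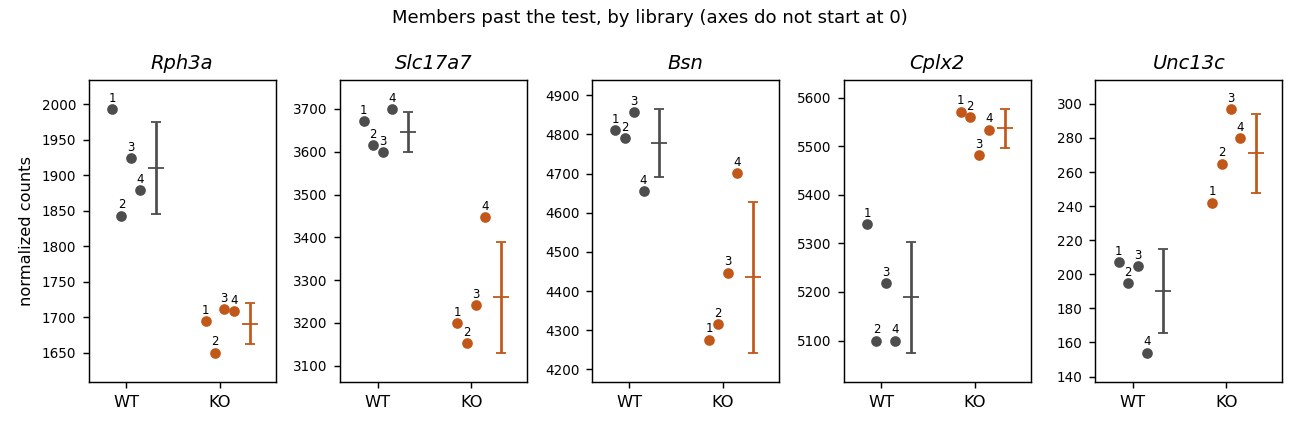
Normalized counts of the 5 called genes in each library (numbers mark replicates) with the mean and SD of each genotype. The axes do not start at 0. The genotypes are apart for Rph3a, Slc17a7, Cplx2 and Unc13c, and for Bsn HAR123-KO replicate 4, at 4702, sits among the WT libraries.

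In the Munc13 family 1 member rose and the balance between members differed by more than the spread between libraries. Unc13c (ENSMUSG00000062151, chromosome 9, bases 73479422 to 73968966, minus strand), which encodes Munc13-3, had 207, 195, 205 and 154 counts in WT against 242, 265, 297 and 280 in HAR123-KO. All HAR123-KO libraries lay above all WT libraries. The log2 fold change of 0.51 ± 0.09 (DESeq2 adjusted p = 1.22e-05, edgeR adjusted p = 1.3e-05) was the only one among the 44 genes past 0.5, the fold limit the study used for this tissue, and 0.298% of the tested genes passed that limit together with an adjusted p under 0.05. Unc13c was called in 8 of 8 fits that left out a library, with log2 fold changes from 0.42 to 0.56.

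Unc13a, the Munc13-1 of most cortical synapses, had 1975, 1895, 1876 and 1915 counts in WT against 1831, 1830, 1743 and 1811 in HAR123-KO. These groups were apart in the opposite direction, at a log2 fold change of -0.09 ± 0.03 that did not pass the test (DESeq2 adjusted p = 0.275). Unc13b, or Munc13-2, had 387, 349, 384 and 378 counts in WT against 384, 323, 341 and 307 in HAR123-KO, with overlapping groups and a log2 fold change of -0.14 ± 0.07 (adjusted p = 0.552).

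Per exon length Unc13a held 79.9 ± 1.25% of the Munc13 counts in WT and 75.8 ± 1.26% in HAR123-KO, while Unc13c held 11.4 ± 1.32% and 16.3 ± 1.5%. The ranges of Unc13c, 9.43% to 12.3% and 14.5% to 18.1%, did not meet. Unc13a remained the main transcript of the family in every library. The exons of Unc13a overlap those of Colgalt1 over 3.92% of their length, whereas those of Unc13c overlap no other annotated exon.

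Rims1, which links Rab3 on the vesicle to Munc13 and calcium channels, had 1488, 1642, 1638 and 1697 counts in WT against 1541, 1537, 1491 and 1609 in HAR123-KO. The HAR123-KO libraries lay within the WT range, and the log2 fold change was -0.07 ± 0.04 (DESeq2 adjusted p = 0.655). The other active zone genes Rims2, Rims3, Pclo and Erc2 had log2 fold changes of 0.03, 0.03, -0.03 and -0.05 with overlapping groups. Pclo encodes piccolo, the partner of bassoon, and its mean went from 3578 ± 51.6 to 3506 ± 73.5 normalized counts, with an interval of the log2 fold change from -0.08 to 0.02.

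None of the 3 Rab3 genes, the GTPases that mark vesicles for docking, was called by DESeq2 or edgeR, and 0 had an unadjusted p under 0.05. Rab3a had 1112, 1037, 996 and 1059 counts in WT against 1040, 1125, 1086 and 1067 in HAR123-KO, and Rab3c had 1325, 1284, 1354 and 1302 against 1284, 1306, 1338 and 1341. Both pairs of groups overlapped, with log2 fold changes of 0.04 ± 0.04 and 0.00 ± 0.04. The log2 ratio of Rab3c to Rab3a was 0.33 ± 0.08 in WT and 0.29 ± 0.05 in HAR123-KO (exact permutation test, p = 0.486), and Rab3b had a log2 fold change of 0.09 ± 0.12.

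The 3 endocytosis genes did not pass the test in DESeq2 or edgeR either, and 0 had an unadjusted p under 0.05. Dnm1, the neuronal dynamin that cuts vesicles from the membrane, had 3389, 3504, 3532 and 3637 counts in WT against 3557, 3557, 3506 and 3398 in HAR123-KO. The groups overlapped fully, and the interval of the log2 fold change was -0.06 to 0.05. Amph, which recruits dynamin, and Synj1, the phosphatase that sheds the clathrin coat, had log2 fold changes of -0.09 and -0.04 with overlapping groups.

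Read across roles, 22 of the 44 genes were fitted above 0 and 22 below, and the median log2 fold change was -0.002, the same as over all tested genes. The median size of the log2 fold change was 0.07, against 0.09 for the tested genes and 0.05 for those averaging 1000 or more. Of the 39 genes not called, 29 had a log2 fold change smaller than 0.1 in size and 25 had a 95% interval wholly within 0.2 of 0. The 3 whose interval reached beyond 0.5 in either direction were among the least abundant genes, Slc17a6, Syt6 and Doc2b.

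At an unadjusted p under 0.05 there were 16 genes (36.4%), 7 higher and 9 lower, against 8.78% of all tested genes. At a mean of at least 1000 the shares were 41.7% (10 of 24) and 30.1%. Groups that did not overlap were found for 9 genes (20.5%), namely Slc17a7, Rph3a, Syt7, Unc13a and Vamp2, which were lower, and Unc13c, Cplx2, Syt6 and Sv2c, which were higher, against 7.67% of all tested genes. At a mean of at least 1000 it was 6 of 24 vesicle genes (25.0%) against 21.9% of the tested genes. The edgeR test called 6 vesicle genes (13.6%) and 2.28% of its 14503 genes.

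**Figure D4:**
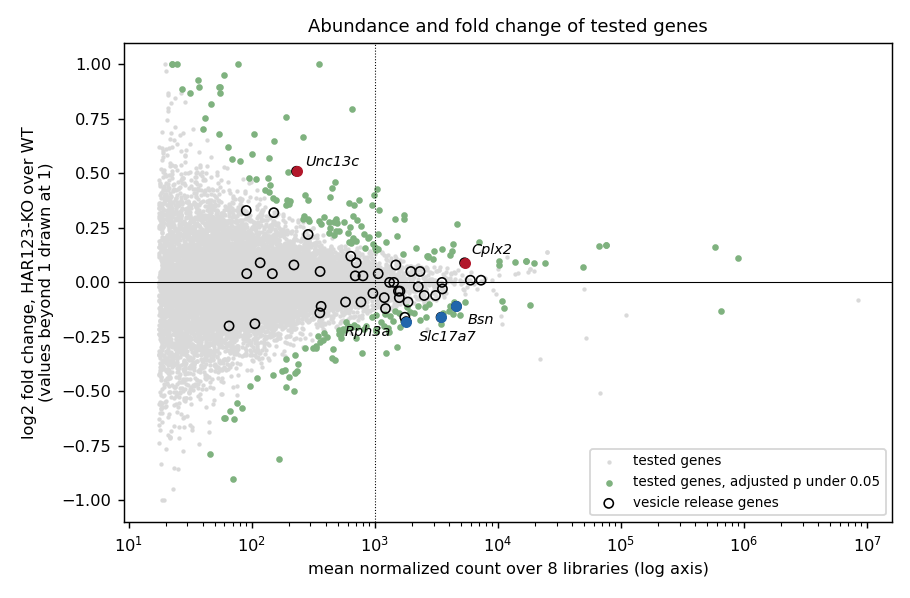
Log2 fold change of HAR123-KO over WT against the mean normalized count (log axis) for the 12758 tested genes, with called genes in green, the 44 vesicle genes as open circles and the 5 called ones filled. The dotted line marks 1000 counts, and 4 of the 5 called vesicle genes lie to its right, with Unc13c to its left.

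The sum of the 44 genes was 22890 ± 91.2 CPM of nuclear protein-coding counts in WT and 22544 ± 86.5 in HAR123-KO, or 2.29% and 2.25%. Every HAR123-KO library, at 22450 to 22641, lay below every WT library, at 22782 to 23005, a ratio of 0.985. Without Slc17a7 the ratio was 0.99. For the sum of the neuron markers it was 0.979.

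Some marker lists of other cell types moved far more than the vesicle genes. Of 12 markers of striatal projection neurons 8 were called higher, with a sum of 1857 to 1908 CPM in WT and 2363 to 2402 in HAR123-KO and no marker at 0. Choroid plexus markers summed to 8.61 to 11.8 and 33.5 to 45.3, with 1 of 10 called, higher, the 1 that received an adjusted p. Oligodendrocyte markers (4 of 10 higher) went from 4877 to 5024 in WT to 5530 to 5622 in HAR123-KO. Other sums were lower in all HAR123-KO libraries, with 3 of 10 astrocyte markers called lower (7580 to 7752 in WT and 7024 to 7232 in HAR123-KO), 2 of 6 claustrum and layer 6b markers (195 to 236 and 148 to 161) and 1 of 8 endothelial markers (141 to 157 and 111 to 121). Of the 8 deep layer markers, whose sums are given with Slc17a7, DESeq2 called none (2 had an unadjusted p under 0.05, and edgeR called 1, Foxp2, higher). Of the 8 thalamic markers, 0 were called by DESeq2 or edgeR and 0 had an unadjusted p under 0.05. The thalamic marker Gbx2 was at 0 in all libraries, and the sums of this list overlapped at 223 to 234 and 228 to 246.

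The sum of the striatal markers was 1.26 times higher in HAR123-KO, with the 2 genotypes well apart. Beside it stands Sv2c, a gene known from the basal ganglia, which did not pass the test and had a ratio of 1.16. The part of the striatal markers in the vesicle genes was not tested. Within each library the log2 ratio of Sv2c to Sv2a was -2.53, -2.30, -2.47 and -2.39 in WT and -2.15, -2.28, -2.23 and -2.15 in HAR123-KO, so the groups were apart. The difference was 0.22 (two-sided exact permutation test, p = 0.0286, the smallest these groups allow), which was 0.114 after adjustment over the 4 ratios tested. The other 3 ratios had adjusted p-values of 0.743.

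**Figure D5:**
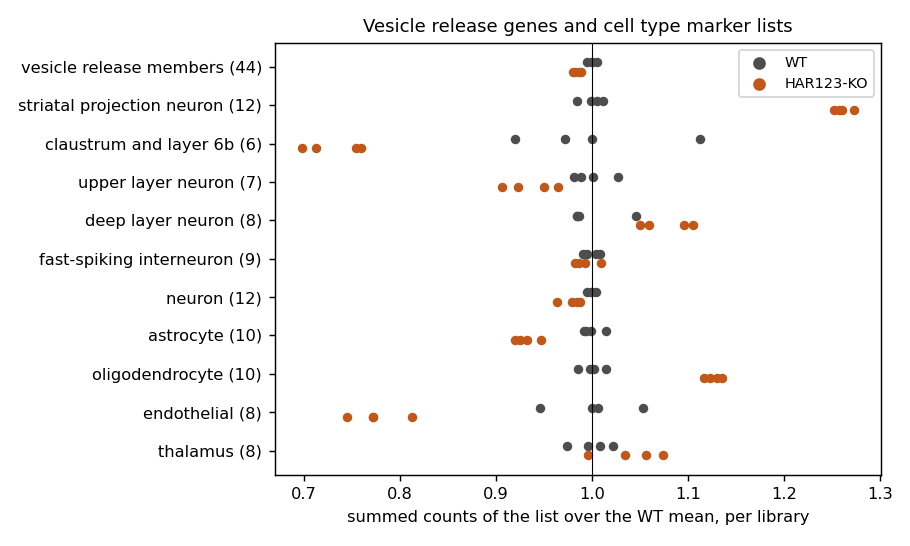
Summed counts of the vesicle release genes and of 10 marker lists in each library, divided by the WT mean of the list, with the number of genes in brackets and the choroid plexus list, at a ratio of 3.78, left out as far outside the axis. The vesicle genes lie near 1 in both genotypes, and the striatal markers lie near 1.26 in all HAR123-KO libraries.

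A further 102 genes of the vesicle cycle, listed by function and not by how they moved, gave the wider setting. Of these 95 received an adjusted p and 1 of the 95 was called (1.05%), against 1.69% of all tested genes. Their median log2 fold change was -0.017, with 41 genes fitted above 0 and 61 below. At an unadjusted p under 0.05 there were 11 of the 102, of which 10 were lower, against 8.78% of all tested genes in either direction. In 8 of the 102 the groups did not overlap, of which 7 were lower, against 7.67% of all tested genes in either direction. Of the 19 averaging 1000 or more it was the same single gene (5.26%), against 12.6% of the tested genes at that level. That gene was Hspa8, the chaperone that strips clathrin from new vesicles and refolds SNAP-25 with its partner Dnajc5, with 4562, 4537, 4526 and 4524 counts in WT against 4286, 4173, 4347 and 4220 in HAR123-KO.

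All HAR123-KO libraries lay below all WT libraries for Hspa8. The log2 fold change was -0.09 ± 0.02 with an adjusted p of 0.0158 in DESeq2 and 0.0828 in edgeR. Without WT replicate 1, WT replicate 2, HAR123-KO replicate 1 or HAR123-KO replicate 2 the adjusted p was 0.15, 0.115, 0.0558 and 0.193, so 4 of 8 such fits kept the call. In edgeR the single call among the 102 was a different gene, Syt13, a synaptotagmin without calcium binding, at a log2 fold change of -0.16 (adjusted p = 0.0268, DESeq2 0.0855). Smg6, the gene that holds HAR123, had 208, 217, 213 and 199 counts in WT against 240, 205, 209 and 218 in HAR123-KO, with a log2 fold change of 0.05 ± 0.09 (DESeq2 adjusted p = 0.964).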

How the data were processed

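RNA was extracted from frontal cortex, depleted of ribosomal RNA and sequenced with paired ends after directional library preparation. Raw counts of reads for each gene were deposited, which the authors made with STAR 2.5.2b on GRCm38 and featureCounts over exons. The settings for strand and for reads with several matches are not given in the sources used here. Symbols and gene models came from GENCODE M21, in which 55536 of 55536 identifiers had the same start and end, and there were 0 unused sample columns. Totals were 13528251 to 17051001 counts per library, of which 2786320 to 3732172 lay in nuclear protein-coding genes, which sets the precision. Sums over lists are CPM of these nuclear protein-coding counts.

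Genotype was tested by DESeq2 1.42.0 (Wald test, run under R 4.3.3, median-of-ratios size factors, independent filter tuned to 0.1, Benjamini-Hochberg adjustment). DESeq2 is the tool the study names, and these settings were chosen here. A gene was called at an adjusted p under 0.05 in either direction. Standard errors and 95% intervals are those of the fit. Alternatives were edgeR 4.0.16 (quasi-likelihood, with TMM and filterByExpr), TMM or protein-coding size factors, a filter for 10 counts in at least 4 libraries, switching the independent filter off, fold limits, the replicate number as a block and leaving out each library. Ratios within a library used 0.5 added counts and an exact permutation test.

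Values in every library are given for the 26 members with an unadjusted p under 0.05, groups apart, a place in a ratio or the first place in their role group. Members, lists and this rule were chosen with earlier results of these data known. Of the marker lists, 1 gene (Ctgf) has no entry under that symbol. Pairs of libraries had a chi-square per degree of freedom of 1.21 to 1.3 within genotypes and 1.58 to 1.72 across them, so no 2 libraries agreed within sampling noise. Upstream windows are from RefSeq.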

Additional observations from a re-analysis of the deposited data

Results flagged for a closer look

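In 6 of the 96 groups of 4 libraries that were looked at, 1 library stood apart from the other 3 by Dixon's criterion, where chance gives about 1 in 20 groups, or 4.8. These were Sv2b in HAR123-KO replicate 3, at 2073 normalized counts against 1966 to 1983 in the other libraries of that genotype, and Napb in HAR123-KO replicate 2, at 1593 against 1506 to 1520. Vamp1 in HAR123-KO replicate 4 stood at 386 against 340 to 345. In WT they were Syt5 in replicate 4, at 385 against 341 to 347, Nsf in replicate 2, at 2200 against 2280 to 2296, and Rab3b in replicate 2, at 97.8 against 117 to 120. None of the 6 genes was called.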

How the results depend on the processing

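Counts of calls depended on the test and the limits. Over all genes the 215 calls became 331 with edgeR, 38 with an absolute log2 fold change over 0.5 and 3 at limits of 0.01 for the adjusted p and 1 for the log2 fold change, and leaving out each library gave 133 to 185, the lowest without WT replicate 1. Of the vesicle release genes, 1 (Unc13c) passed the limit of 0.5, 0 passed the stricter limits, and leaving out each library gave 3 to 6 calls, 3 of them without WT replicate 2, HAR123-KO replicate 1 or HAR123-KO replicate 2. For the other vesicle cycle genes both limits gave 0, and leaving out each library gave 0 to 1. The median log2 fold change of the vesicle release genes stayed between -0.016 and -0.002 when each library was left out. The difference in the log2 ratio of Sv2c to Sv2a was 0.18 to 0.26 then, with exact p-values of 0.0286 to 0.0571. Over the single genes named with all values, 337 values kept their direction and their side of the threshold, 22 lost the call, 4 gained it and 14 changed sign. The 14 belong to 4 uncalled genes whose log2 fold changes lie near 0: when each library was left out, Sv2a ran from -0.02 to 0.02, Snap25 from -0.00 to 0.02, Rab3c from -0.01 to 0.02 (and -0.00 with edgeR, protein-coding size factors or the minimum of 10 counts) and Dnm1 from -0.02 to 0.01. Likewise 3 ratios without a call changed sign when a library was left out, the difference running from -0.07 to 0.01 for Vamp1 to Vamp2, -0.12 to 0.03 for Slc17a6 to Slc17a7 and -0.06 to 0.00 for Rab3c to Rab3a. Depth limits the less abundant genes, such as Slc17a6, Syn3 and Doc2b.

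With the replicate number as a block the calls fell to 22 over all genes, 0 for the vesicle release genes and 0 for the other vesicle cycle genes. Slc17a7, Rph3a and Unc13c, called in 8 of 8 fits that left out a library, were among those lost (DESeq2 adjusted p = 0.266 for Unc13c). With the same block the Sv2c to Sv2a difference of 0.22 had an exact sign-flip p of 0.125, the smallest that test allows. Across genotypes, libraries with the same number had correlations of -0.015 to 0.018 over 8794 genes (4 pairs), against -0.031 to 0.033 for different numbers. Of the 8 libraries 2 correlated best with their own number. Much of the deviation within a genotype is sampling noise (chi-square per degree of freedom of 1.21 to 1.3), so this check cannot exclude a small shared effect. The labels do not say what the number stands for.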
